A study of Rattus norvegicus with 6 samples.

Results

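Lysosomal hydrolases, cathepsins and lysosomal membrane proteins were followed in LN4D6 rat mammary tumour cells through 54 listed genes. A gene was taken as measured where at least 1 probe set carried its symbol as the single annotated symbol, and 51 of the 54 genes met that rule, through 67 probe sets. Npc1, Galns and Sgsh had no such probe set and were not analysed here. The 51 genes belong to 14217 genes with a name of that kind. By role they comprise 14 peptidases, 12 glycosidases, 3 sulfatases, 7 genes of lipid and phosphate breakdown or transport, 6 membrane proteins, 3 genes of mannose 6-phosphate sorting, 4 genes of the proton pump, and the pair Tfeb and Grn. Where a gene had several probe sets, the one with the highest mean over all arrays stood for it, and the others are given beside it where they were also above background.

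The study compared LN4D6 cells transfected with CREB3L1 (3 arrays) with the same cells left untransfected (3 arrays), to find transcripts that change after transfection. CREB3L1 is a transcription factor anchored in the membrane of the endoplasmic reticulum, from which proteolysis frees its active part. Total RNA was read on Affymetrix 3' expression arrays, and all values are log2 RMA expression values, so a difference of 1 is a 2-fold change. The labels name no empty-vector control, do not say which species the CREB3L1 sequence came from or whether the transfected cells are 1 clone, and leave unsaid whether separate cultures were used, so every p-value measures only the spread between arrays, which may be technical. The array's own Creb3l1 probe set read 3.38, 3.42 and 3.36 on the CREB3L1 arrays and 3.34, 3.38 and 3.37 on the untransfected arrays, below the background level in both groups, so it does not check the labels.

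Lysosomes break down proteins, glycans and lipids with acid hydrolases. Most of these enzymes receive a mannose 6-phosphate tag in the Golgi and are carried to the lysosome by mannose 6-phosphate receptors, and a proton pump, the V-ATPase, acidifies the compartment in which they work. Transcription factors of the TFEB family (TFEB, TFE3, TFEC and MITF) bind a palindromic E-box found at many lysosomal genes and can raise their transcription together.

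A difference is the CREB3L1 mean less the untransfected mean in log2 units, given ± its standard error and tested with limma on all 6 arrays, and each adjusted p is a Benjamini-Hochberg value over 31042 probe sets with a threshold of 0.05. Background was set at a log2 value of 5, and 41 of the 51 measured lysosomal genes had a group mean at or above it. Values of different genes are not compared, because each probe set has its own scale.

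CREB3L1 replicate 3 stood apart from the other arrays. Over all probe sets it correlated with the others at r of 0.984 to 0.989, while the remaining arrays correlated among themselves at 0.996 to 0.999. Its Gapdh 3' control probe set exceeded the 5' one by 4.77, against -0.16 to -0.10 on the other 5 arrays. Results are therefore given with and without it. Of 12 mammary epithelial markers, Krt5, Krt14, Krt8 and Tp63 were above background and the other 8, Epcam, Cdh1 and Krt18 among them, were below it in both groups. The log2 of the summed linear values of all 12 was 16.04 to 16.42 in CREB3L1 cells and 16.13 to 16.32 in untransfected cells. Such a sum is set mainly by the brightest probe sets. Myeloid cells are rich in lysosomal enzymes. Of 14 myeloid markers, 12 were below background in both groups, including Ptprc, Cd68, Tyrobp and Itgam, only Cd14 and Csf1r were above it, and the summed level was 10.79 to 11.14 in CREB3L1 cells and 11.06 to 11.40 in untransfected cells. For 8 fibroblast markers, of which Col3a1 alone was above background, it was 14.61 to 14.88 in CREB3L1 cells and 14.45 to 14.57 in untransfected cells. With limma, 0 of these markers passed the threshold, and 0, 1 and 0 of the 3 lists had an unadjusted p under 0.05. At that level 7.99% of all genes were lower and 6.05% higher. Any part of RNA quality in the values of replicate 3 was not tested.

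Among the lysosomal genes, 6 of 51 fell in CREB3L1 cells and 0 rose. They were the peptidases Lgmn, Scpep1, Dpp7 and Tpp1, the cholesterol carrier Npc2 and the proton pump subunit Atp6v1a. The 6 genes make 11.8% of those measured, where 1.52% of all 14217 genes fell, and 14.6% of the 41 above background, where 2.61% of all genes above background fell. Of all genes 0.577% rose, and of those above background 1.02%. At an unadjusted p under 0.05 in limma, 14 of the 51 lysosomal genes were lower (27.5%, against 7.99% of all genes) and 2 were higher (3.92%, against 6.05%). Here and below, the unadjusted shares of all genes cover all 14217, of which 6503 were below background in both groups. Such shares were not taken over genes above background alone, so an excess over them may be overstated. Without CREB3L1 replicate 3 the same 6 genes fell together with Grn, against 3.70% of all genes and 6.46% of those above background, and again 0 rose, against 2.02% and 3.59%. Leaving out any other single array left 2 or 3 genes past the threshold.

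For 16 of the 41 lysosomal genes above background (39.0%) all CREB3L1 arrays lay below all untransfected arrays, where 16.5% of all genes above background did so. The same 16 are 31.4% of the 51 measured, against 10.7% of all genes. The opposite order was seen for 2 of the 41, Ids and Lamp2, which is 4.88% against 14.7% of all genes above background, and 3.92% of the 51 against 9.00% of all genes. The median log2 difference of the 41 genes was -0.12, and 27 of them were negative, while the median of all genes above background was 0.01. Without CREB3L1 replicate 3 the medians were -0.14 for the lysosomal genes, 31 of which were negative, and -0.01 for all genes above background. Over all 51 measured genes the median was -0.06, and single genes ran between -1.80 for Lgmn and 0.44 for Mcoln1. The 6 genes that fell lie on chromosomes 1, 3, 6, 10 and 11, with Lgmn and Npc2 both on chromosome 6.

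**Figure D1:**
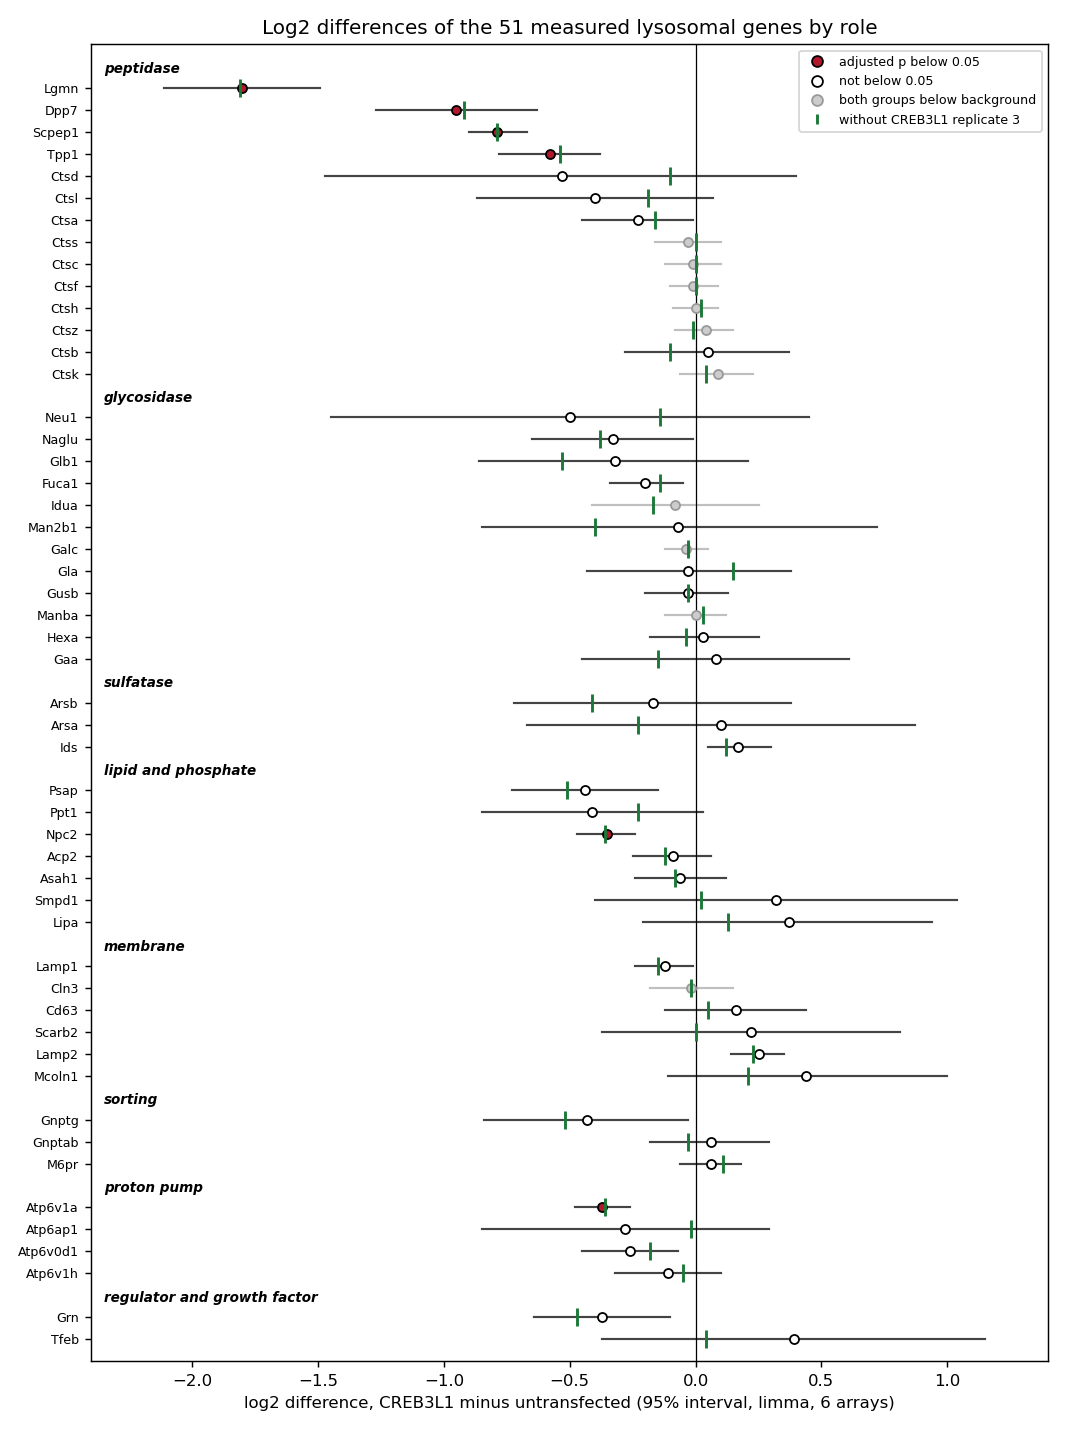
Log2 difference (x axis, CREB3L1 minus untransfected) of each of the 51 measured lysosomal genes (y axis), grouped by role, as points with 95% intervals from limma on 6 arrays, with the value without CREB3L1 replicate 3 as a green bar. The 6 filled red points, 4 of them peptidases, are the genes that passed the threshold, and all lie left of 0, with Lgmn farthest at -1.80.

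The promoters of 4 genes are shown because they hold, or lack, the E-box tied to the TFEB family at genes whose levels are described further on. Lgmn had the largest fall of the listed genes, Ctsd and Lamp1 did not pass the test on these arrays, and Igf2r, a receptor of the same pathway outside the list, fell. Each run covers 250 bases before and 50 bases after the gene's start, read 5' to 3' in the direction of transcription from RefSeq's GRCr8 table, with every CACGTG in capitals and the longer TCACGTGA in capitals where it occurs. Lgmn is chr6:127347279-127347578 on the minus strand, Ctsd chr1:206968772-206969071 minus, Lamp1 chr16:83075014-83075313 minus, and Igf2r chr1:50526628-50526927 plus.
Lgmn: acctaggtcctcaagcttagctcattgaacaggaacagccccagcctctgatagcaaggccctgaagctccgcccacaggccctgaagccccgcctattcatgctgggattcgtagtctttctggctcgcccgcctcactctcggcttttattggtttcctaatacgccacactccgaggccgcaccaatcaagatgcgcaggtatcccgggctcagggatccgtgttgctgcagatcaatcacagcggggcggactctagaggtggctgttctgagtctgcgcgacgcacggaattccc
Ctsd: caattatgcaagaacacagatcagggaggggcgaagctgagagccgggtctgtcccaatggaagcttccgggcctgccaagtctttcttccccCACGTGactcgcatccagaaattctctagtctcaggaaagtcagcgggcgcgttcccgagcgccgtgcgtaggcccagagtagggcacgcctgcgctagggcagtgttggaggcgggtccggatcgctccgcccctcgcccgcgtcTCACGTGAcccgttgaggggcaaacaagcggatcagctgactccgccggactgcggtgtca
Lamp1: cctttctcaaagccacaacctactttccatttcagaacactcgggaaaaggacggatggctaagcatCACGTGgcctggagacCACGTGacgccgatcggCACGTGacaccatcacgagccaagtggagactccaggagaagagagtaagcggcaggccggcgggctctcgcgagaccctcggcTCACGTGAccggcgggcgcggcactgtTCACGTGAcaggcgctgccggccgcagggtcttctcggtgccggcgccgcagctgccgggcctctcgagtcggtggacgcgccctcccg
Igf2r: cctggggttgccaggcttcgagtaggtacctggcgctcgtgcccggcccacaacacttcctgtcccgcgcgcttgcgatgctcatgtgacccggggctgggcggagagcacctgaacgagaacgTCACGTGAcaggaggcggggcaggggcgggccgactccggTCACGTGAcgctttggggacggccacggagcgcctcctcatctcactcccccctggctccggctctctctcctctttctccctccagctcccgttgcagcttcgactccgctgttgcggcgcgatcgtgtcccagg

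The letters TCACGTGA, CACGTG, TGACGTCA, TGACGTGG and CCACGTGG were searched on both strands of such windows. CACGTG lies inside both TCACGTGA and CCACGTGG. The first is the core of the site bound by TFEB and its relatives, TGACGTCA is the cyclic AMP response element, and TGACGTGG and CCACGTGG are boxes known from factors of the CREB3 and ATF6 families. RefSeq windows were found for 41 of the 51 measured lysosomal genes. TCACGTGA was in 7 of the 41 (17.1%), against 0.777% of all 33469 promoters. Among the 31 of them above background it was in 5 (16.1%), against 2.03% of the promoters of 7197 genes above background. The 7 genes were Atp6v0d1, Cln3, Ctsd, Galc, Gnptg, Lamp1 and Mcoln1, and in each of them the octamer began within 66 bases of the start. CACGTG was in 12 of the 41 (29.3%), against 6.42% of all promoters, and in 8 of the 31 (25.8%), against 10.2% of those of genes above background. TGACGTCA and TGACGTGG were in 0 of the 41, against 1.83% and 0.595% of all promoters and 3.54% and 0.945% of those of genes above background. CCACGTGG was in the promoter of Cd63 alone (2.44% of the 41 and 3.23% of the 31), against 0.666% and 0.973%. Among the genes that fell, all but Scpep1 had a window, and 0 of these 5 held any of the letters searched, which says only that they are not in these windows. Of 179 promoters of all genes above background that fell, 1.68% held TCACGTGA and 11.2% held CACGTG. The Igf2r promoter held 2 copies of TCACGTGA, the first beginning 126 bases before the start.

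Of the 5 genes with TCACGTGA whose transcripts were above background, 0 passed the test with limma, with all arrays or without CREB3L1 replicate 3. Their log2 differences were -0.53 for Ctsd, -0.43 for Gnptg, -0.26 for Atp6v0d1, -0.12 for Lamp1 and 0.44 for Mcoln1. Cln3 and Galc, the other 2 carriers, were below background in both groups. Of all genes above background, 2.61% fell and 1.02% rose with all arrays, and 6.46% and 3.59% without CREB3L1 replicate 3. With shares that low, 0 of 5 does not set the carriers apart from other genes.

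Peptidases accounted for 4 of the 6 falls, which is 28.6% of the 14 measured, against 1.52% of all genes. Of 14 measured, 8 were above background, and their median log2 difference was -0.56 with all arrays and -0.36 without CREB3L1 replicate 3, the median of all genes above background being 0.01 and -0.01. In 7 of the 8 (87.5%), all but Ctsb, the groups did not overlap and CREB3L1 cells were lower, against 16.5% of all genes above background. Among the 7 were Ctsd and Ctsl, at -0.53 and -0.40 with all arrays. Without CREB3L1 replicate 3 these were -0.10 and -0.19. The cathepsins Ctsc, Ctsf, Ctsh, Ctsk, Ctss and Ctsz were below background in both groups, so their differences, between -0.03 and 0.09, are not read.

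Lgmn encodes legumain, the asparaginyl endopeptidase, which cuts after asparagine and also processes several cathepsins to their mature chains. It read 5.12, 5.28 and 5.25 on the CREB3L1 arrays, against 6.75, 7.15 and 7.14 on the untransfected arrays. The CREB3L1 arrays were close together and just above the background level, and the groups were far apart. Lgmn fell by 1.80 ± 0.12 on the log2 scale (3.48-fold lower, adjusted p = 0.0054), with a 95% interval of -2.11 to -1.49, and the difference was -1.81 without CREB3L1 replicate 3 (adjusted p = 0.00585). The other Lgmn probe set was below background in both groups. In these bulk samples, fewer cells with a transcript and less of it per cell cannot be told apart.

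Scpep1, serine carboxypeptidase 1, trims residues off the carboxyl end of peptides. Its values were 10.50, 10.47 and 10.50 on the CREB3L1 arrays and 11.20, 11.28 and 11.35 on the untransfected arrays. The CREB3L1 arrays, replicate 3 included, differed among themselves by far less than they did from the untransfected arrays. The fall was 0.79 ± 0.05 (1.73-fold lower, adjusted p = 0.00346, limma), and the gene passed in all 14 alternatives tried, with a highest adjusted p of 0.0351.

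Dpp7 removes dipeptides from the amino end of peptides, preferring those that end in proline or alanine. CREB3L1 arrays gave 5.33, 5.50 and 5.34, against 6.57, 6.35 and 6.11 on untransfected arrays. The groups did not overlap, and the untransfected arrays were the more spread. Dpp7 was 1.93-fold lower in CREB3L1 cells (log2 difference -0.95 ± 0.13, adjusted p = 0.0404). The call was lost without CREB3L1 replicate 1 or 2 (adjusted p of 0.158 and 0.126) and without untransfected replicate 1 or 2 (0.0914 and 0.181).

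Tpp1, tripeptidyl peptidase 1, is the enzyme missing in a childhood form of neuronal ceroid lipofuscinosis. It read 8.69, 8.90 and 8.67 on the CREB3L1 arrays, against 9.33, 9.26 and 9.41 on the untransfected arrays, with no overlap. The log2 difference was -0.58 ± 0.08 (1.5-fold lower, adjusted p = 0.0425). Leaving out CREB3L1 replicate 1 gave an adjusted p of 0.159, and leaving out untransfected replicates 1, 2 or 3 gave 0.179, 0.139 and 0.171.

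**Figure D2:**
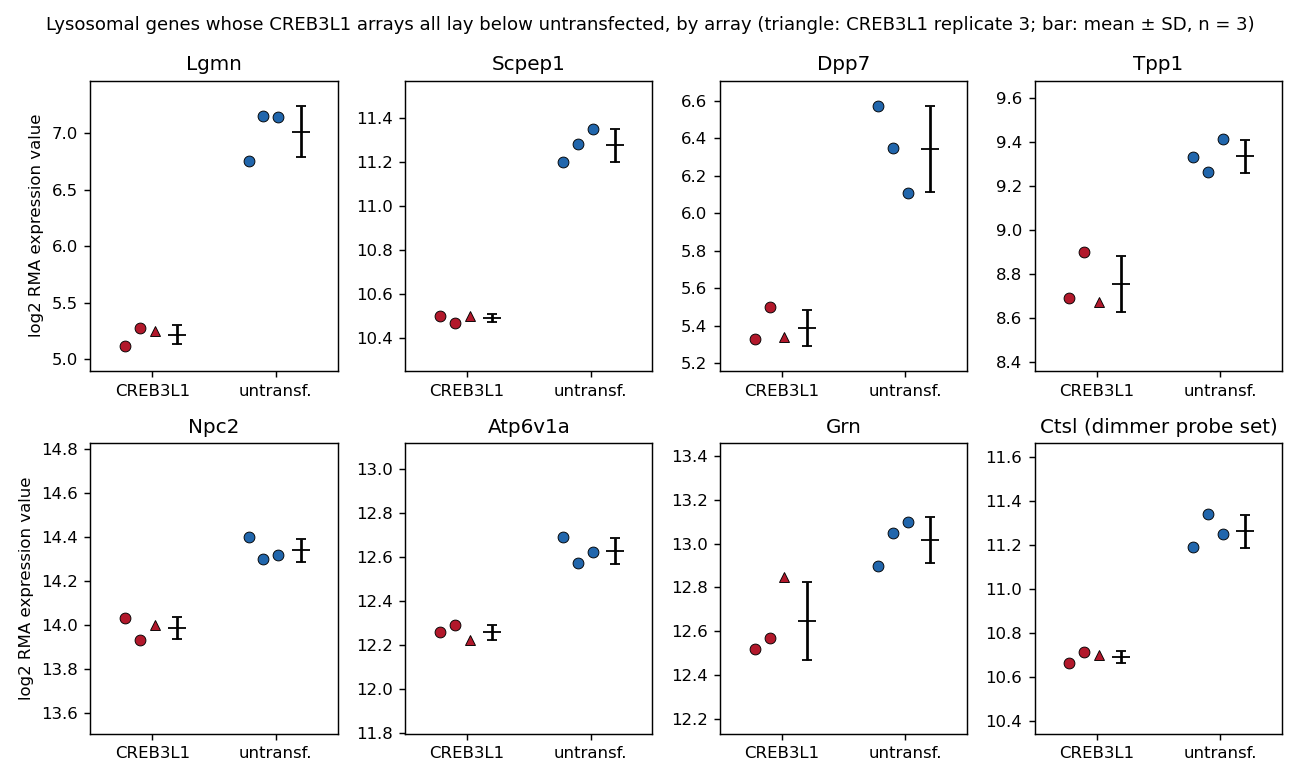
Log2 RMA expression value (y axis, scaled separately per panel) on each CREB3L1 array (red, left) and each untransfected array (blue, right) for 7 lysosomal genes and the dimmer Ctsl probe set, with mean ± SD beside the points and CREB3L1 replicate 3 as a triangle. The groups are apart in every panel. The triangle sits close to another CREB3L1 array except for Grn, where it is at 12.85 against 12.52 and 12.57.

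Ctsl, the cysteine protease cathepsin L, had 2 probe sets above background that both lay lower in CREB3L1 cells but differed in the test. The brighter one read 15.09, 15.03 and 14.42 on the CREB3L1 arrays and 15.23, 15.27 and 15.24 on the untransfected arrays. Replicate 3 was far below the other CREB3L1 arrays there, and the log2 difference of -0.40 ± 0.19 did not pass (adjusted p = 0.654), nor did -0.19 without that array (adjusted p = 0.0726). The dimmer one read 10.66, 10.71 and 10.70, against 11.19, 11.34 and 11.25, with replicate 3 among its group. It fell by 0.57 ± 0.05 (1.48-fold lower, adjusted p = 0.00898), and the difference was -0.58 without replicate 3. That call was lost without CREB3L1 replicate 1 or 2 (adjusted p of 0.0528 and 0.0596) and without untransfected replicate 3 (0.0567). Since the brighter probe set stands for the gene, Ctsl is not among the 6 genes counted.

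The remaining cathepsins above background did not pass. Ctsb, a cysteine protease, read 13.85, 13.83 and 14.27 on the CREB3L1 arrays and 13.91, 13.90 and 14.00 on the untransfected arrays, a log2 difference of 0.05 with a 95% interval of -0.28 to 0.37. Ctsd, the aspartic protease, read 11.59, 11.64 and 10.33, against 11.68, 11.79 and 11.69. Its difference of -0.53 ± 0.37 rested on CREB3L1 replicate 3, and without that array it was -0.10 ± 0.05 (adjusted p = 0.473). Ctsa, the protective protein that stabilises beta-galactosidase and neuraminidase, differed by -0.23 ± 0.09 (adjusted p = 0.481).

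Glycosidases showed no call with limma. Of 12 measured, 9 were above background. At an unadjusted p under 0.05, 2 of the 12 were lower (16.7%, against 7.99% of all genes) and 0 higher (against 6.05%). Log2 differences of the 12 ran between -0.50 and 0.08. Fuca1, which removes fucose and had the smallest p of the glycosidases, read 11.93, 11.87 and 11.73 on CREB3L1 arrays and 12.04, 12.03 and 12.04 on untransfected arrays. The groups were apart, but the difference of -0.20 ± 0.06 did not pass (adjusted p = 0.293), nor did -0.14 without CREB3L1 replicate 3 (adjusted p = 0.135).

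For the other glycosidases above background the values were as follows. Gusb, beta-glucuronidase, differed by -0.03 with a 95% interval of -0.20 to 0.13, and Hexa, a beta-hexosaminidase subunit, by 0.03 with an interval of -0.18 to 0.25. Those intervals exclude falls of the size seen for Lgmn, Scpep1, Dpp7 and Tpp1. Naglu, which acts on heparan sulfate, differed by -0.33, and Neu1, the sialidase, by -0.50 with an interval of -1.45 to 0.45. Neu1 read 5.02, 5.11 and 3.98 on the CREB3L1 arrays and differed by -0.14 without replicate 3. Several others moved by more than 0.1 when CREB3L1 replicate 3 was left out. Glb1, beta-galactosidase, gave -0.32 with it and -0.53 without it (adjusted p = 0.127), Man2b1, an alpha-mannosidase, gave -0.07 and -0.40 (adjusted p = 0.291), and Gaa, the glycogen-degrading alpha-glucosidase, gave 0.08 and -0.15. Gla, alpha-galactosidase A, gave -0.03 with it and 0.15 without it on its brighter probe set, and -0.24 both ways on the other (adjusted p = 0.326 and 0.298), so its probe sets disagree in sign without that array. Galc, Idua and Manba were below background in both groups.

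Among the 3 sulfatases, 0 passed with limma and 1, Ids, had an unadjusted p under 0.05, where 6.05% of all genes were higher at that level. Ids, iduronate sulfatase of heparan and dermatan sulfate breakdown, read 15.19, 15.18 and 15.33 on the CREB3L1 arrays, against 15.07, 15.04 and 15.08 on the untransfected arrays. All CREB3L1 arrays were the higher, but the difference of 0.17 ± 0.05 did not pass (adjusted p = 0.299), nor did 0.12 without replicate 3 (adjusted p = 0.162). Arsa and Arsb, the arylsulfatases, differed by 0.10 and -0.17 with all arrays and by -0.23 and -0.41 without CREB3L1 replicate 3 (adjusted p = 0.471 and 0.123). The other Arsb probe set above background read 8.77, 8.79 and 8.46 on the CREB3L1 arrays, against 8.69, 8.93 and 8.98 on the untransfected arrays. It differed by -0.20 with all arrays (adjusted p = 0.892) and by -0.09 without replicate 3 (adjusted p = 0.962).

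Of the 7 genes of lipid and phosphate breakdown or transport, Npc2 fell and 0 rose with limma. At an unadjusted p under 0.05, 2 were lower (28.6%, against 7.99% of all genes) and 0 higher (against 6.05%). All 7 were above background, while the shares of all genes include genes below it. NPC2 is the soluble carrier that hands cholesterol to NPC1 in the lysosome. It read 14.03, 13.93 and 14.00 on the CREB3L1 arrays, against 14.40, 14.30 and 14.32 on the untransfected arrays, with no overlap and little spread in either group. The fall was small, 0.35 ± 0.05 on the log2 scale (1.28-fold lower, adjusted p = 0.0371), and the same to within 0.01 without CREB3L1 replicate 3 (-0.36, adjusted p = 0.0327). Leaving out any one of the other 5 arrays gave differences of -0.32 to -0.37 that missed the threshold, the adjusted p being 0.11 and 0.137 without CREB3L1 replicates 1 and 2 and 0.123, 0.137 and 0.153 without untransfected replicates 1, 2 and 3.

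Psap encodes prosaposin, the precursor of the saposins that present lipids to hydrolases. It read 10.56, 10.44 and 10.71 on CREB3L1 arrays and 10.95, 10.86 and 11.21 on untransfected arrays, apart by group. The difference was -0.44 ± 0.12 (adjusted p = 0.241), and -0.51 without CREB3L1 replicate 3 (adjusted p = 0.0965). Ppt1, a palmitoyl-protein thioesterase, differed by -0.41, Acp2, an acid phosphatase, by -0.09, Lipa, lysosomal acid lipase, by 0.37, and Smpd1, acid sphingomyelinase, by 0.32. The Ppt1, Lipa and Smpd1 values were -0.23, 0.13 and 0.02 without CREB3L1 replicate 3. Asah1, acid ceramidase, differed by -0.06 with an interval of -0.24 to 0.12 on its brighter probe set. Its other probe set read 8.99, 9.24 and 3.04 on the CREB3L1 arrays, against 8.69, 9.41 and 8.42 on the untransfected arrays, so replicate 3 alone set its difference of -1.75 ± 1.77, which was 0.27 without that array.

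The 6 membrane proteins had 0 calls with limma. At an unadjusted p under 0.05, 1 was higher and 1 lower (16.7% each, against 6.05% and 7.99% of all genes). Lamp1 and Lamp2 are the major glycoproteins lining the lysosomal membrane, and LAMP2 also has a splice form that serves chaperone-mediated autophagy. Lamp2 read 13.17, 13.14 and 13.22 on CREB3L1 arrays, against 12.87, 12.96 and 12.97 on untransfected arrays, while Lamp1 read 12.94, 12.85 and 12.99, against 13.04, 13.09 and 13.03. Both genes had groups that did not overlap, Lamp2 higher and Lamp1 lower in CREB3L1 cells. Neither passed, with log2 differences of 0.25 ± 0.04 for Lamp2 (adjusted p = 0.0872) and -0.12 ± 0.05 for Lamp1 (adjusted p = 0.464), and with a weight per array Lamp2 did pass (adjusted p = 0.0308). The other Lamp2 probe set read 12.13, 12.21 and 12.93 on CREB3L1 arrays, with the untransfected arrays at or below 12.25. Its difference of 0.32 ± 0.23 (adjusted p = 0.967) rested on replicate 3 and was 0.07 without that array (adjusted p = 0.991).

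Mcoln1, the calcium channel mucolipin 1, read 9.47, 9.72 and 10.30 on the CREB3L1 arrays, against 9.27, 9.40 and 9.50 on the untransfected arrays. The groups overlapped, with replicate 3 the highest array, and the difference was 0.44 ± 0.22 (adjusted p = 0.708). Cd63, a tetraspanin of late endosomes, differed by 0.16 ± 0.11, and Scarb2, the carrier that brings glucocerebrosidase to the lysosome, by 0.22. Without CREB3L1 replicate 3 these 3 differences were 0.21, 0.05 and 0.00. Cln3 was below background in both groups.

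In the proton pump, Atp6v1a fell and the other 3 listed genes did not pass. ATP6V1A is the catalytic subunit, which hydrolyses ATP in the cytosolic sector of the pump. It read 12.26, 12.29 and 12.22 on CREB3L1 arrays and 12.69, 12.57 and 12.62 on untransfected arrays, with the groups apart. The fall was 0.37 ± 0.04 (1.29-fold lower, adjusted p = 0.0272), and the difference was -0.36 without CREB3L1 replicate 3 (adjusted p = 0.0266). Without CREB3L1 replicate 1 or 2 the adjusted p was 0.118 and 0.107, and without untransfected replicate 1, 2 or 3 it was 0.0898, 0.0857 and 0.13. The other Atp6v1a probe set was also lower on all CREB3L1 arrays but did not pass (-0.56 ± 0.31, adjusted p = 0.787), and its replicate 3 value of 10.08 was the lowest, against 11.03 and 11.17 on the other CREB3L1 arrays.

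Atp6v0d1, a subunit of the membrane sector, read 12.01, 12.01 and 11.76 on CREB3L1 arrays, against 12.19, 12.20 and 12.18 on untransfected arrays. The groups were apart, and the difference of -0.26 ± 0.08 did not pass (adjusted p = 0.297), nor did -0.18 without replicate 3 (adjusted p = 0.0564). Atp6v1h, a regulatory subunit, differed by -0.11 with an interval of -0.32 to 0.10. Atp6ap1, an accessory protein of the pump, differed by -0.28 ± 0.23, and by -0.02 without replicate 3. Of 12 further pump subunits, 0 passed with limma on 6 arrays, and the median difference was -0.19. At an unadjusted p under 0.05, 4 were lower (33.3%, against 7.99% of all genes) and 1 higher (8.33%, against 6.05%). All 12 were above background, while the shares of all genes include genes below it. Atp6ap2, the other accessory protein, had -0.33 ± 0.07 (adjusted p = 0.126) with all arrays and fell by 0.40 without CREB3L1 replicate 3 (adjusted p = 0.0178). Atp6v1b2, which forms the catalytic ring together with ATP6V1A, differed by -0.36 ± 0.08 (adjusted p = 0.173). The dimmer probe sets of Atp6ap2 and Atp6v1b2 did not pass either, with -1.53 ± 1.15 and -0.80 ± 0.65. Replicate 3 was far below the other CREB3L1 arrays on both, and without it they gave -0.26 and -0.08. The subunit that was higher at an unadjusted p under 0.05 was Atp6v0a2, named after its values were seen. It differed by 0.62 ± 0.20 (adjusted p = 0.372), and by 0.43 without CREB3L1 replicate 3 (adjusted p = 0.227). On the dimmer Atp6v0a2 probe set the difference was 0.08 (adjusted p = 0.832).

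In mannose 6-phosphate sorting, the 3 listed genes did not pass, and the receptor gene Igf2r, taken from a list of 22 other measured sorting genes, fell. It makes 4.55% of the 22, where 1.52% of all genes fell. At an unadjusted p under 0.05 in limma, 2 of the 22 were higher and 2 lower (9.09% each, against 6.05% and 7.99% of all genes). Gnptab encodes the catalytic and Gnptg the gamma subunits of the phosphotransferase that makes the tag, and M6pr the cation-dependent receptor. Gnptg read 6.73, 6.25 and 6.75 on CREB3L1 arrays, against 7.06, 6.85 and 7.11 on untransfected arrays. Its groups were apart, but the difference of -0.43 ± 0.16 did not pass (adjusted p = 0.456; -0.52 and 0.213 without replicate 3). Gnptab differed by 0.06 with an interval of -0.18 to 0.29. M6pr read 14.20, 14.23 and 14.08, against 14.12, 14.10 and 14.11, and differed by 0.06 with an interval of -0.06 to 0.18 (adjusted p = 0.989).

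Igf2r encodes the cation-independent mannose 6-phosphate receptor, which carries tagged hydrolases to the lysosome and also takes up insulin-like growth factor II at the cell surface. It read 9.41, 9.32 and 9.40 on the CREB3L1 arrays, against 10.73, 10.58 and 10.73 on the untransfected arrays. The groups were far apart, and replicate 3 sat with the other CREB3L1 arrays. Igf2r fell by 1.30 ± 0.06 (2.46-fold lower, adjusted p = 0.00148), with an interval of -1.44 to -1.16, and it passed in all 13 alternatives tried, with a highest adjusted p of 0.0248. The dimmer Igf2r probe set read 9.05, 9.06 and 9.32, against 10.13, 9.99 and 10.27, and fell by 0.99 ± 0.11 (adjusted p = 0.0215). That second call was lost without any one array other than CREB3L1 replicate 3, at adjusted p of 0.0968 and 0.103 without CREB3L1 replicates 1 and 2 and of 0.11, 0.0687 and 0.081 without untransfected replicates 1, 2 and 3. The other 21 sorting genes held 0 calls with limma on 6 arrays. One of them, Ap1g1, an adaptor subunit of Golgi-to-endosome carriers, had a difference of 0.27 (adjusted p = 0.079) and rose by 0.31 without CREB3L1 replicate 3 (adjusted p = 0.0149), and it is named here after its values were seen.

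Tfeb, the listed transcription factor, read 8.71, 8.74 and 9.77 on CREB3L1 arrays, against 8.66, 8.75 and 8.64 on untransfected arrays. Replicate 3 alone lay high, the difference was 0.39 ± 0.30 with an interval of -0.37 to 1.15 (adjusted p = 0.9998), and it was 0.04 without that array. Grn, progranulin, is a secreted and lysosomal glycoprotein that is cut to granulins. It read 12.52, 12.57 and 12.85 on CREB3L1 arrays, against 12.90, 13.05 and 13.10 on untransfected arrays. The groups did not overlap, with replicate 3 nearest to the untransfected arrays. The difference of -0.37 ± 0.11 did not pass (adjusted p = 0.296), and without replicate 3 Grn fell by 0.47 ± 0.07 (adjusted p = 0.0308).

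Of 19 other measured regulators of lysosome signalling and biogenesis, 1 fell with all arrays (5.26%, against 1.52% of all genes) and 0 rose (against 0.577%). At an unadjusted p under 0.05 in limma, 5 of the 19 were lower (26.3%, against 7.99% of all genes) and 0 higher (against 6.05%). The gene that passed was Mitf, the TFEB relative best known from melanocytes and osteoclasts. Mitf read 8.00, 7.79 and 8.17 on CREB3L1 arrays, against 9.27, 9.48 and 9.76 on untransfected arrays, and its dimmer probe set read 6.23, 6.51 and 6.56, against 8.39, 8.40 and 8.53. On both probe sets the groups were far apart. Mitf fell by 1.52 ± 0.16 on the brighter probe set (2.87-fold lower, adjusted p = 0.0194) and by 2.01 ± 0.10 on the other (4.02-fold lower, adjusted p = 0.00244). The second call was kept in all 13 alternatives, with a highest adjusted p of 0.0351. The first was lost without CREB3L1 replicate 1 or 2 (0.0946 and 0.0782) and without untransfected replicate 1, 2 or 3 (0.0531, 0.102 and 0.0563).

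The relatives Tfec and Tfe3 did not pass with all arrays and passed without CREB3L1 replicate 3. The difference between those fits was not tested. Without that array 3 of the 19 regulators fell, where 3.70% of all genes and 6.46% of those above background fell. Of the alternatives, only the fit without replicate 3 is reported for Tfec and Tfe3. Tfec, named after its values were seen as Tfe3 was, read 7.75, 7.96 and 8.36 on CREB3L1 arrays, against 8.83, 8.81 and 8.59 on untransfected arrays. It differed by -0.72 ± 0.17 with all arrays (adjusted p = 0.188) and by -0.89 without replicate 3 (adjusted p = 0.0179). The other Tfec probe set did not pass either way, with -0.49 ± 0.21 (adjusted p = 0.567) and -0.48 without replicate 3 (adjusted p = 0.498). Tfe3 differed by -0.53 ± 0.08 (adjusted p = 0.0633) and by -0.55 (adjusted p = 0.0483).

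**Figure D3:**
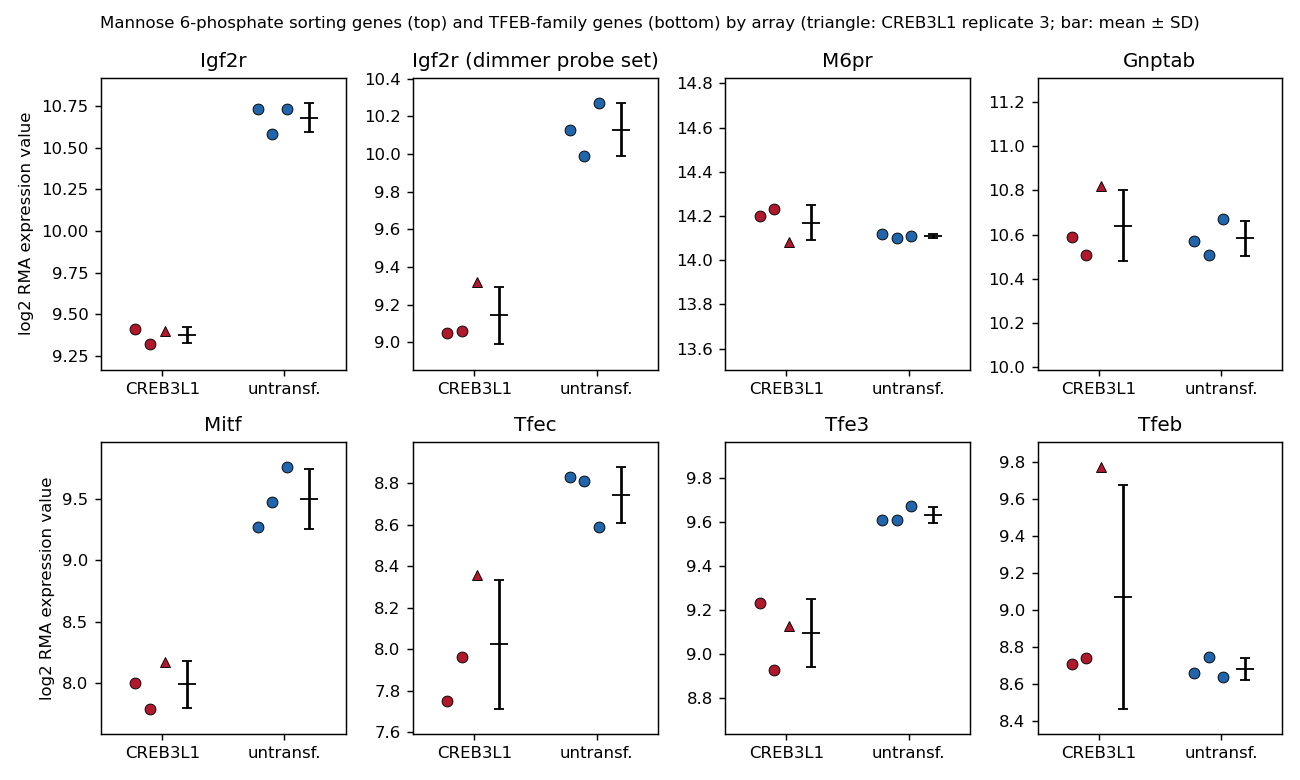
Log2 RMA expression value (y axis, scaled separately per panel) on each CREB3L1 array (red, left) and each untransfected array (blue, right), with mean ± SD and CREB3L1 replicate 3 as a triangle. Both Igf2r probe sets, Mitf, Tfec and Tfe3 are lower on all CREB3L1 arrays, M6pr, Gnptab and Tfeb overlap, and Tfeb has replicate 3 alone at 9.77.

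The spread of CREB3L1 replicate 3 touched many of the listed genes. Of the 41 above background, it held the highest or the lowest value of the 6 arrays for 28, 15 of them the highest and 13 the lowest, while each other array did so for 5 to 13. It differed by more than 0.5 from the mean of CREB3L1 replicates 1 and 2 for 16 genes, 10 upward and 6 downward, with the extremes 1.05 for Tfeb and -1.28 for Ctsd. Between replicates 1 and 2 themselves 0 of the 41 genes differed by more than 0.5. The same counts were not made over all genes, so they describe the array and do not set the listed genes apart. The median of the 41 genes relative to the untransfected mean was -0.13, -0.14 and -0.07 on the CREB3L1 arrays, against -0.04, -0.01 and 0.07 on the untransfected arrays.

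**Figure D4:**
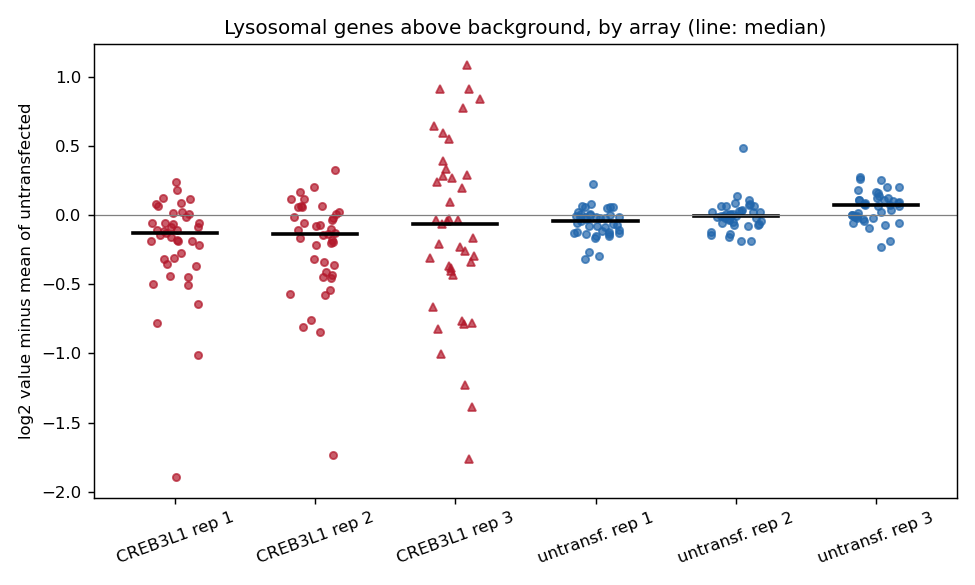
Log2 value of each of the 41 lysosomal genes above background minus its mean over the untransfected arrays (y axis), by array (x axis), CREB3L1 at left in red and untransfected at right in blue, with the median as a black line. The points of CREB3L1 replicate 3 (triangles) hold the highest or lowest of the 6 values for 28 genes, and its median of -0.07 lies nearer to 0 than those of the other CREB3L1 arrays.

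Across the wider pathway, 2 of 114 other measured genes fell with all arrays, Igf2r and Mitf, and 0 rose. That share of 1.75% is near the 1.52% of all genes that fell. With limma at an unadjusted p under 0.05, 17 of the 114 were lower (14.9%, against 7.99% of all genes) and 7 higher (6.14%, against 6.05%), and their median difference was -0.05. Without CREB3L1 replicate 3, 6 of the 114 fell and 1 rose, where 3.70% of all genes fell and 2.02% rose. Of the 114, 97 were above background, and of all genes above background 6.46% fell and 3.59% rose in that fit. Among 19 other lysosomal hydrolases and cofactors 0 passed, 1 being higher and 1 lower (5.26% each) at an unadjusted p under 0.05. The genes with the smallest p were Rnaset2, an acid ribonuclease (-0.43 ± 0.08, adjusted p = 0.119), and Prcp, a prolyl carboxypeptidase (0.22 ± 0.08, adjusted p = 0.433). Among 21 other membrane proteins 0 passed, 1 being higher (4.76%) and 3 lower (14.3%) at an unadjusted p under 0.05. Tmem192 differed by -0.12 (adjusted p = 0.283), and Laptm5 was below background in both groups.

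Autophagy genes also held no call, with 0 of 17 past the threshold in limma. At an unadjusted p under 0.05, 1 was higher and 1 lower (5.88% each, against 6.05% and 7.99% of all genes). Optn, an autophagy receptor, differed by -0.40 ± 0.07 (adjusted p = 0.104), and Wipi2, a phosphoinositide-binding protein of forming autophagosomes, by 0.20 (adjusted p = 0.483). Among 4 measured cystatins, inhibitors of cysteine cathepsins, 0 passed with all arrays. At an unadjusted p under 0.05, 1 was higher and 1 lower, each 25% of a list of only 4. Cst6 differed by 0.24 ± 0.05 (adjusted p = 0.141) and Cstb by -0.28 ± 0.07 (adjusted p = 0.215). Without CREB3L1 replicate 3, Cstb fell by 0.35 (adjusted p = 0.0435).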

How the data were processed

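The deposited values were used as given. Per the submitters' processing notes the authors made them with RMA in Partek 6.6. For the log base, and for settings at probe level, nothing is given in the sources used here. The authors' deposited values span 0.27 to 17.2, their medians per array lie at 2.97 to 3.06, and they were read as log2 expression values. Per the labels' protocols, total RNA was labelled with a 3' kit, so signal depends on the transcript's 3' end. Groups come from the label on transfection, and having only 3 arrays per group limits the precision of every value.

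Of 31099 probe sets, 57 controls were set aside. Names came from GEO's platform annotation, checked against RefSeq (GRCr8): 20826 probe sets had 1 symbol, 436 several and 9780 none, and 0 symbols changed. limma 3.58.1 in R 4.3.3 (lmFit, eBayes without trend, two-sided) was run on all probe sets after a test on simulated data. In that simulation 40% of log2 changes of 0.5 and 70% of those of 1.0 passed the threshold. A gene without a call may therefore still have changed. No detection calls were used, and a log2 value of 5 served as background. Named with every array's value were the listed genes past the threshold, that with the smallest p in each role and the 2 brightest. From the other lists, genes past the threshold were also named with every array's value. Where none passed, the 2 with the smallest p were named, by difference unless below background in both groups. Further genes are named by range or as chosen after their values were seen. The genes and lists were chosen with earlier results of these data known. Alternatives were quantile normalisation, median centring, leaving out dim probe sets, the mean of a gene's probe sets, a mean-variance trend, robust eBayes, array weights, an ordinary test without moderation, and leaving out each array. Each fit covered genes in and outside the lists, and for Igf2r and Mitf the results were added after their values were seen.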

Additional observations from a re-analysis of the deposited data

How the results depend on the processing

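Against 6 lysosomal genes lower in CREB3L1 cells, a mean-variance trend gave 3, median centring 2 and the ordinary test 1, and leaving out 1 array gave 2 to 7. Leaving out CREB3L1 replicates 1, 2 and 3 gave 2, 3 and 7, and leaving out untransfected replicates 1, 2 and 3 gave 2, 2 and 3. Array weights gave 7, robust eBayes 6, quantile normalisation and the mean of all probe sets 5 each, and the filter on dim probe sets 4. The count of higher genes was 0 throughout except for array weights, which gave 1, Lamp2. The median difference of the measured genes, -0.062, was -0.125 with dim probe sets left out, a filter that keeps 41 genes, -0.029 with quantile normalisation, and -0.096 to -0.043 with 1 array left out. The threshold was kept by Scpep1 in 14 of 14 alternatives, by Lgmn in all but the ordinary test (adjusted p = 0.0587), and lost by Dpp7 and Tpp1 in 7 each, Npc2 in 9 and Atp6v1a in 10. No named difference changed sign in these alternatives for the 6 genes that fell. Grn passed with array weights (adjusted p = 0.0149) as without CREB3L1 replicate 3. Over all probe sets all 6 arrays gave 132 higher and 299 lower, array weights 600 and 952, the fit without CREB3L1 replicate 3 479 and 756, and the ordinary test 9 and 65; the other counts of the all-probe-set fit fell to 28 to 44 higher and 116 to 135 lower when any other array was left out, and were 79 and 239 with the trend. No paired analysis was possible because the labels give no replicate numbers shared by the groups. Differences of low genes are limited by the background level, and 10 of the 51 genes were below it in both groups.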
